A study of Homo sapiens with 6 samples.

Results

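The proteasome is the protease that degrades ubiquitin-tagged proteins in the cytosol and nucleus. Its barrel-shaped 20S core is built from stacked rings of alpha subunits (PSMA genes) and beta subunits (PSMB genes), and the proteolytic sites lie inside, on beta subunits. The 19S particle caps the core: a ring of ATPases (PSMC genes) unfolds substrates and feeds them in, and non-ATPase subunits (PSMD genes) bind and remove ubiquitin. Activators encoded by PSME genes can dock in place of the 19S particle, PSMF1 encodes a protein that inhibits the core in vitro, and PSMG genes encode chaperones that assemble the core. In human cells most of these genes are transcribed together, and the transcription factor NRF1, encoded by NFE2L1, raises them when the proteasome is impaired.

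Members were the genes of the deposited table whose symbol is PSM followed by a letter from A to G and a number, with the inducible core subunits PSMB8 and PSMB9 left out. This gave 49 of the 13271 genes listed. They were 15 genes of the 20S core (7 alpha and 8 beta), 20 genes of the 19S group (6 ATPases and 14 PSMD genes), 4 activators, 1 inhibitor and 4 core chaperones, 44 in all. The other 5 share the pattern of the name but encode no subunit: the antisense or neighbouring RNAs PSMA3-AS1 and PSMG3-AS1, the pseudogenes PSMC1P1 and PSME2P2, and PSMC3IP, which encodes a meiotic recombination factor. All 49 passed the filter on low values.

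The samples were 5637 cells, a human bladder cancer line, in 3 libraries from cells transfected to overexpress MAT1A and 3 from cells given an empty vector (control). MAT1A encodes the liver form of the enzyme that makes S-adenosylmethionine, the main methyl donor of the cell. All cells were kept in DMEM/F-12 with serum and antibiotics, received the lipid reagent Lipofectamine 3000 at 50% confluency and were lysed 48 h later. The transfection was transient, and neither the promoter that drove MAT1A nor the share of cells that took it up is given in the sources used here. No label says whether the replicates came from different cultures; the p-values reflect the variation among the 6 libraries, and part of it could be technical.

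Values are reads per gene on a CPM-like scale, and they corresponded to 17.4 to 21.6 M reads per library. MAT1A stood at 1805, 1834 and 1917 in MAT1A libraries and at 1.09, 0.253 and 4.54 in control libraries, as labelled. Several epithelial markers were abundant, with 13 of 15 listed and KRT7, KRT19, KRT8 and KRT5 at 1476 or more in every library. KRT13 lay between 3.33 and 10.6 and UPK1B between 7.24 and 9.70. The urothelial markers UPK1A and UPK3A were not listed, and UPK2 lay between 0.606 and 1.08. All 15 skeletal muscle markers were listed, and their summed value was 76.8, 34.5 and 28.9 in MAT1A libraries, against 466, 140.1 and 78.6 in control libraries. The 3 listed fibroblast markers summed to 125, 128 and 121 in MAT1A libraries and to 259, 151 and 143 in control libraries, while 1 of 6 leukocyte markers and 1 of 3 endothelial markers were listed, each at no more than 1.66. Control 1 was thus highest for RNA of muscle and fibroblasts. In the test described below, 13 of the 15 muscle markers and 1 of the 3 fibroblast markers were called lower in MAT1A libraries (7.4% of all genes). The muscle sum was highest in replicate 1 of each group. This RNA thus went with both group and replicate number, and its part in the results was not tested.

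The differences in proteasome transcripts were small and mostly upward. Each fold change here is a difference of log2(value + 1), MAT1A minus control, tested with limma over 12866 genes, and a gene was called at a Benjamini-Hochberg adjusted p under 0.05. Of the 49 members, 3 rose (PSME1, PSME3 and PSMA4) and 0 fell, and 46 were not called. That is 6.12% higher, where 4.01% of all genes tested were called higher and 7.4% lower, so the share called was near the background. At an unadjusted p under 0.05, 13 members were higher (26.5%, against 12% of all genes) and 1 was lower, PSMD2 (14.2% of all genes). In 16 members (32.7%, against 14.7% of all genes) every MAT1A library lay above every control library, and in 1, again PSMD2, every MAT1A library lay below (15.6% of all genes). The fitted change was above 0 in 42 of 49 members (85.7%, against 51.5% of all genes), and 19 of the 49 turned sign under at least 1 alternative processing. Of these, PSMC6, PSMD11 and PSMD14 turned only when MAT1A 2 and control 1 were both left out, a choice made after the values were seen. The median log2 change of the 44 subunit, activator, inhibitor and chaperone genes was 0.062, with quartiles of 0.024 and 0.089, where the median of all genes tested was 0.0040.

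**Figure D1:**
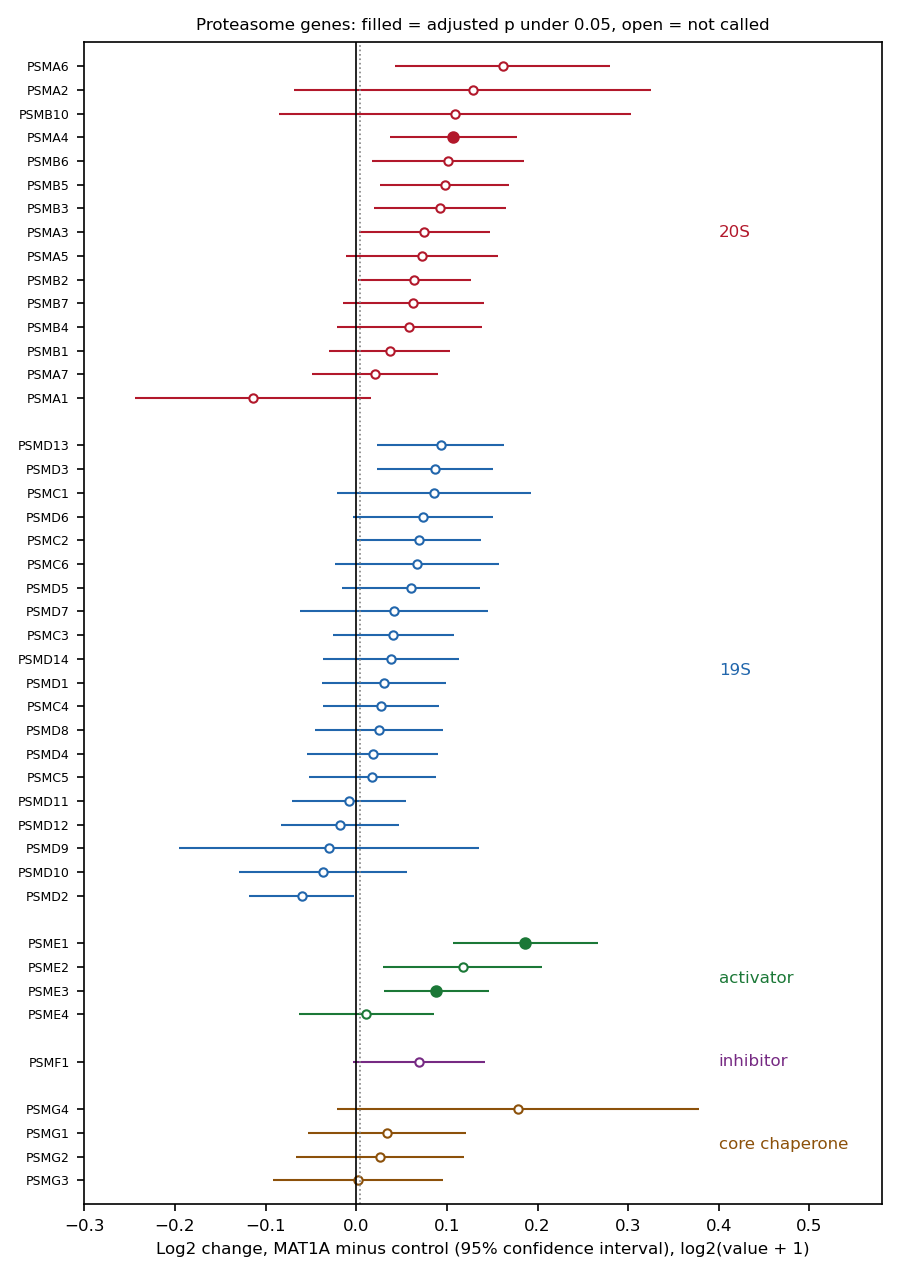
Log2 change of each of 44 proteasome genes (x axis, MAT1A minus control, log2(value + 1) scale), by class from top to bottom; points are estimates, bars 95% confidence intervals from limma, filled points passed an adjusted p of 0.05 and the dotted line is the median of all genes tested. The 3 filled points are PSME1, PSME3 and PSMA4; 38 of 44 estimates lie right of 0, and PSMA1 and PSMD2 are the lowest.

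The count of calls depended on the fit. With the replicate number as a block, 9 members rose and 0 fell, beside 7.57% higher and 10.4% lower among all genes; PSME2, PSMB3, PSMB5, PSMB6, PSMD3 and PSMD13 joined the 3 named above. When dependence on GC content and exon length was taken out of every library (the trend-corrected fit), 19 rose and 0 fell, beside 9.99% higher and 7.25% lower of all genes. The median log2 change of all genes was 0.023 in that fit, against 0.0040 in the main fit. With library medians then set back, 7 rose and 1 fell (PSMD2), beside 5.79% and 8.8%. On the recovered reads, 1 rose and 0 fell by edgeR (3.75% higher and 7.34% lower of all genes), 1 and 0 by DESeq2 (2.48% and 4.96%), and 2 and 0 by limma-voom (3.76% and 7.21%). The count was 1 without MAT1A 1, without control 1 or without control 3, 2 without control 2, 3 without MAT1A 2 and 5 without MAT1A 3. No share of all genes called is given for these fits, so a loss particular to the members cannot be told from a general one.

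The activators had the highest median change of the classes in the main fit, though with length and GC trends removed the core came close, as given below. PSME1 and PSME2 encode the alpha and beta subunits of the 11S activator PA28, which opens the core and favours the release of peptides for antigen presentation; both genes are induced by interferon gamma and lie close together on chromosome 14. PSME3 encodes PA28 gamma, a nuclear relative that forms a ring by itself, and PSME4 encodes PA200, a large single-chain activator. PSME1 (chromosome 14, GRCh38 positions 24136158 to 24138967, plus strand) had values of 108, 114 and 108 in MAT1A libraries, against 95.9, 99.9 and 93.7 in control libraries. The groups did not overlap, and the lowest MAT1A library lay above the highest control library. The means were 110.0 ± 3.54 in MAT1A libraries and 96.5 ± 3.14 in control libraries (SD, n = 3 each), 14.0% higher, and the log2 change was 0.19 with an SE of 0.038 (limma adjusted p = 0.0039). Between 1671 and 2308 reads lay behind each of these values. PSME1 kept its call without each of the 6 libraries in turn, with adjusted p up to 0.0355, and it was the only member called by edgeR and by DESeq2 on the recovered reads.

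PSME3 (chromosome 17, 42824385 to 42843758, plus strand) had 467, 468 and 471 in MAT1A libraries, against 443, 439 and 439 in control libraries. The groups did not overlap and each lay close together, with an SD of 2.08 in MAT1A libraries and 2.32 in control libraries. Its log2 change was 0.088 ± 0.027 (SE; limma adjusted p = 0.0476), and the call was lost without any library except MAT1A 2 (adjusted p of 0.111 without MAT1A 1, 0.0741 without MAT1A 3, and 0.127, 0.131 and 0.172 without control 1, 2 and 3). PSME2 (chromosome 14, 24143362 to 24147570, minus strand), the partner of PSME1, had 86.5, 90.0 and 83.3 in MAT1A libraries, against 76.2, 81.2 and 81.8 in control libraries. The groups did not overlap, but the change of 0.12 ± 0.041 was not called (adjusted p = 0.0783; 0.0319 with the replicate block). For PSME2, 26.8% of the read-length windows of its principal transcript also occur in other genes. Among these are the pseudogene PSME2P2 and RNF31, which overlaps PSME2 on the other strand. For PSME1 and PSME3 no window of the principal transcript does. PSME4 had 191, 186 and 203 in MAT1A libraries, against 191, 193 and 192 in control libraries, and the groups overlapped. Its log2 change of 0.011 had a 95% confidence interval from -0.063 to 0.085, which leaves out a change the size of that of PSME1. Summed over the 4 activator genes, the value was 853, 858 and 865 in MAT1A libraries and 806, 813 and 807 in control libraries, 6.16% higher, with no overlap.

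**Figure D2:**
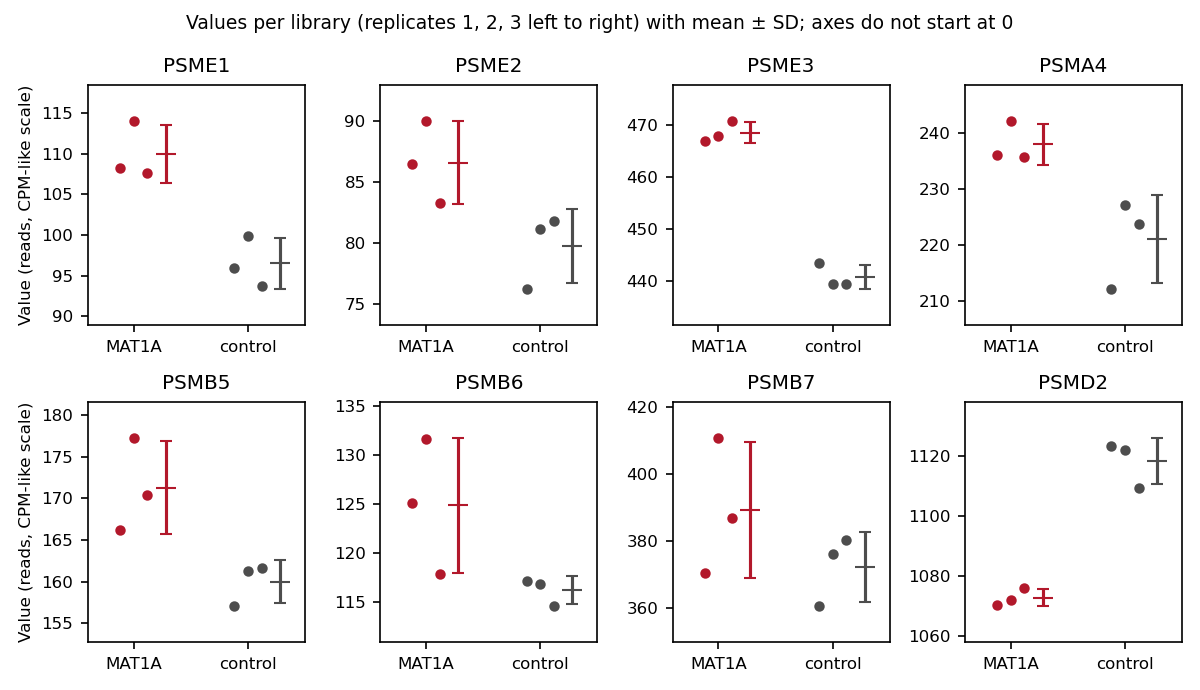
Values of 8 proteasome genes (y axis, reads on the deposited CPM-like scale, axes not from 0) with 1 point per library, MAT1A left and control right; bars are mean ± SD over 3 libraries. PSME1 at 108 to 114 against 93.7 to 99.9 and PSME3 at 467 to 471 against 439 to 443 show no overlap, PSMB7 overlaps, and PSMD2 lies lower in MAT1A libraries.

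The sequences just before the start sites are shown for the 3 genes that rose and for PSME2, whose product pairs with that of PSME1, with matches to 3 known promoter motifs in capitals. The stretches are the 250 bases upstream of the gene start in RefSeq on GRCh38.p14, read along the gene's strand: chr14:24135944-24136193 for PSME1 (plus), chr14:24146611-24146860 for PSME2 (minus), chr17:42833147-42833396 for PSME3 (plus) and chr15:78540155-78540404 for PSMA4 (plus). RefSeq starts can differ from the outermost GENCODE 29 starts given for the genes here: the stretches of PSME2 and PSME3 lie inside the GENCODE spans of those genes, and that of PSME1 reaches into its span.
PSME1: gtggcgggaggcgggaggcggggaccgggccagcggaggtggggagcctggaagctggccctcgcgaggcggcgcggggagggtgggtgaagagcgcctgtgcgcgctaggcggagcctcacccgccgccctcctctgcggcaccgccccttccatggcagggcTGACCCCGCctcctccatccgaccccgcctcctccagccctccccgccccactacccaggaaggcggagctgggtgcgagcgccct
PSME2: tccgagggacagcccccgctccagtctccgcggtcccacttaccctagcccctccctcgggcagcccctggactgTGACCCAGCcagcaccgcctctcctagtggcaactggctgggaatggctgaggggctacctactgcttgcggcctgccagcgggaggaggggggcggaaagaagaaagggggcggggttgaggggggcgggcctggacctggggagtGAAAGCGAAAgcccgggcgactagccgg
PSME3: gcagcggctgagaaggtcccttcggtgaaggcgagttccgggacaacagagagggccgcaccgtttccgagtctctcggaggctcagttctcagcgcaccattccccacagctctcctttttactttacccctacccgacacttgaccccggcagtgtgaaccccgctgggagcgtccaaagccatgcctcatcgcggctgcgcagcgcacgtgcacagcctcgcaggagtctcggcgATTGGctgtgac
PSMA4: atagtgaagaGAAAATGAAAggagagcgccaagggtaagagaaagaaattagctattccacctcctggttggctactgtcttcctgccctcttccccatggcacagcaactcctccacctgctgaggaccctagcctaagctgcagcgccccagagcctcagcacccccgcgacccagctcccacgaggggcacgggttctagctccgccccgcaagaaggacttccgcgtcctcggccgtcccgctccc

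The motifs were searched on both strands and do not overlap each other in these 4 stretches. The first, TGACNNNGC, is the core of the antioxidant response element, which NRF1 and NRF2 bind with small MAF proteins. It begins 86 bases before the start of PSME1 and 175 bases before that of PSME2. Of 38 proteasome genes with an entry, 10 held it (26.3%: PSMB3, PSMD3, PSMD5, PSMD9, PSMD12, PSME1, PSME2, PSME4, PSMG1 and PSMG2), where 11.03% of all 27305 promoters did. Among the 10282 promoters of genes listed in these data, 12.03% did. By class, it was in 1 of 11 core, 4 of 19 19S and 3 of 4 activator promoters. The second, GAAA followed after any 2 bases by another GAAA, is a core of the interferon-stimulated response element. It begins 28 bases before the start of PSME2 and 240 bases before that of PSMA4, and 5 of the 38 held it (13.2%: PSMA4, PSMB4, PSMB10, PSME2 and PSMG4), where 3.07% of all promoters did. The share was 2.34% for genes listed in these data. By class, it was in 3 of 11 core, 0 of 19 19S and 1 of 4 activator promoters. CCAAT, the box bound by NF-Y, lies on the minus strand 12 bases before the start of PSME3. It was held by 16 of the 38 (42.1%), by 33.0% of all promoters and by 35.1% of those of genes listed in these data. A match is a run of letters and not a bound site, and no promoter entry was used for PSMA7, PSMB1, PSMB6, PSMB7, PSMD4 and PSMG3.

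Among the alpha subunits, which form the outer rings and the gate of the core, PSMA4 rose. PSMA4 (chromosome 15, 78540405 to 78552419, plus strand) had 236, 242 and 236 in MAT1A libraries, against 212, 227 and 224 in control libraries. The groups did not overlap, though control 1 lay well below the other control libraries. The log2 change was 0.11 ± 0.033 (SE; limma adjusted p = 0.0459). The call was lost without MAT1A 1 (adjusted p = 0.0973), MAT1A 2 (0.0719), control 1 (0.237) or control 3 (0.107), and the change without control 1 was 0.078. PSMA6 had the highest fitted change of the core, 0.16 ± 0.056. It had 30.0, 28.2 and 30.3 in MAT1A libraries, against 26.0, 27.7 and 25.1 in control libraries, with no overlap and an adjusted p of 0.0741 (0.00701 in the trend-corrected fit). PSMA2 stood at 6.95, 6.94 and 8.58 in MAT1A libraries and at 6.83, 6.77 and 6.61 in control libraries, from 119 to 184 reads a library, and its change of 0.13 was carried by MAT1A 3 (adjusted p = 0.412).

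PSMA1 was the exception among the core genes. It had 23.9, 26.5 and 26.1 in MAT1A libraries, against 29.5, 25.8 and 27.7 in control libraries. The groups overlapped, and the log2 change of -0.11 had a 95% confidence interval from -0.24 to 0.017 (adjusted p = 0.257). PSMA3 (0.075), PSMA5 (0.073) and PSMA7 (0.021) were not called. In the trend-corrected fit PSMA3 (0.15, adjusted p = 0.0023) and PSMA5 (0.14, adjusted p = 0.0209) were, and both stayed called with medians set back. PSMA7 had the highest level of the alpha subunit genes per kb of transcript, and its groups overlapped, at 522, 552 and 506 in MAT1A libraries and 519, 520 and 517 in control libraries; its change was -0.014 without MAT1A 2. The alpha genes together had a median log2 change of 0.075, with 1 of 7 called.

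All 8 beta subunit genes had estimates above 0, and none was called. PSMB5, PSMB6 and PSMB7 encode the subunits with the chymotrypsin-like, caspase-like and trypsin-like sites. PSMB5 (chromosome 14, 23016543 to 23035230, minus strand) had 166, 177 and 170.4 in MAT1A libraries, against 157, 161 and 162 in control libraries. PSMB6 (chromosome 17, 4796144 to 4798503, plus strand) had 125, 132 and 118 in MAT1A libraries, against 117, 117 and 115 in control libraries. PSMB7 (chromosome 9, 124353466 to 124415444, minus strand) had 370.4, 411 and 387 in MAT1A libraries, against 361, 376 and 380.4 in control libraries. The groups did not overlap for PSMB5 and PSMB6 and overlapped for PSMB7, and MAT1A 2 was highest for all 3. Their log2 changes were 0.097 ± 0.034, 0.10 ± 0.039 and 0.063 ± 0.037 (SE), with limma adjusted p of 0.0730, 0.112 and 0.296, and with the replicate block 0.0220, 0.0359 and 0.0982.

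The structural beta genes PSMB1, PSMB2, PSMB3 and PSMB4 had changes of 0.037, 0.064, 0.092 and 0.059. PSMB3 had 192, 208 and 202 in MAT1A libraries, against 185, 187 and 192 in control libraries, with no overlap by a narrow margin (adjusted p = 0.0972; 0.0286 with the block). PSMB10 encodes the interferon-inducible replacement of PSMB7 and had few reads, with 8.19, 7.35 and 6.71 in MAT1A libraries and 6.31, 7.02 and 7.05 in control libraries. These overlapped, and its 95% interval, -0.086 to 0.30, is wide. The other inducible core genes, PSMB8 and PSMB9, were described alongside. PSMB8 had 30.5, 34.7 and 29.9 in MAT1A libraries against 27.6, 26.3 and 28.1 in control libraries, a rise of 0.21 (limma adjusted p = 0.0377; not called without any library but MAT1A 3, 0.0557 to 0.140). PSMB9 had 12.9, 13.2 and 11.6 in MAT1A libraries against 10.3, 11.4 and 10.1 in control libraries, a change of 0.22 (adjusted p = 0.0753; 0.0401 with the block).

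In the 19S particle none of 20 genes was called (limma; 3 higher and 1 lower at an unadjusted p under 0.05; also 0 by edgeR, DESeq2 and limma-voom on the recovered reads). With the replicate block 2 rose (7.57% of all genes), in the trend-corrected fit 7 rose (9.99%), and with medians set back 2 rose and 1 fell (5.79% and 8.8%). The 6 ATPase genes PSMC1 to PSMC6 all had estimates above 0, between 0.018 and 0.085, with a median of 0.054. PSMC2 was closest to a call among them: it had 201, 205 and 203 in MAT1A libraries, against 193, 199.6 and 187 in control libraries, with no overlap and a change of 0.069 (adjusted p = 0.185; 0.00591 in the trend-corrected fit). PSMC4 also showed no overlap, but by less than 1 unit and with a change of 0.027.

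The lid, which carries the deubiquitinase, had a median of 0.040 over 8 genes. PSMD3 encodes a scaffold subunit of the lid. It had 368, 381 and 361 in MAT1A libraries, against 347, 345 and 351 in control libraries, with no overlap and a log2 change of 0.087 ± 0.030 (adjusted p = 0.0751; 0.0223 with the block). PSMD13, another lid subunit, had 234, 245 and 235 in MAT1A libraries, against 221, 231 and 218 in control libraries, a change of 0.093 (adjusted p = 0.0798; 0.0165 with the block). PSMD6 had 85.0, 88.6 and 89.3 in MAT1A libraries, against 82.1, 84.0 and 83.4 in control libraries, and a change of 0.074 (adjusted p = 0.213). PSMD14, the deubiquitinase that cuts ubiquitin chains from substrates, had 186, 196 and 186 in MAT1A libraries, against 179.7, 192 and 182 in control libraries. The groups overlapped, with a change of 0.038 (limma adjusted p = 0.528). In the trend-corrected fit the change was 0.15 (adjusted p = 0.0247), and with medians set back it was 0.13 and not called (adjusted p = 0.0517).

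The base outside the ATPase ring held the only member with every MAT1A library below control. PSMD2 (chromosome 3, 184298709 to 184309054, plus strand) encodes a large scaffold subunit that receives ubiquitin receptors and shuttle factors, and it had the most reads of all members. It had 1070.4, 1072 and 1076 in MAT1A libraries, against 1124, 1122 and 1110 in control libraries. The MAT1A libraries were tightly grouped at 1073 ± 2.85 and the control libraries at 1118 ± 7.71 (SD, n = 3 each), 4.07% lower in MAT1A. The log2 change was -0.060 ± 0.027 (SE; limma adjusted p = 0.175; 0.0515 with the block and 0.00948 in the trend-corrected fit with medians set back). PSMD1, its structural relative, had a change of 0.031. The 3 PSMD genes that encode assembly chaperones of the base, PSMD5, PSMD9 and PSMD10, are absent from the finished particle. PSMD5 had 106, 104 and 109 in MAT1A libraries, against 99.7, 105 and 101.5 in control libraries, a change of 0.061 with overlap (adjusted p = 0.302), and the median of the 3 genes was -0.030.

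PSMF1, the inhibitor gene, had 159, 167 and 155 in MAT1A libraries, against 154, 150.4 and 153 in control libraries. These did not overlap, by a margin of about 1 unit, and the change of 0.069 was not called (adjusted p = 0.217). Of the core chaperones PSMG1 to PSMG4 none was called. PSMG4 had the second highest fitted change of all members, 0.18, but on values of 8.73, 7.61 and 8.81 in MAT1A libraries and 7.12, 8.24 and 6.56 in control libraries, which overlap (95% interval -0.021 to 0.38). Among the 5 genes that only share the name pattern, none was called; PSMC1P1 had the second lowest fitted change, -0.11, from values of 1.29, 0.771 and 0.699 in MAT1A libraries and 0.861, 1.16 and 1.16 in control libraries.

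Set side by side, the core had a higher median change than the 19S group, a difference that was not tested. The median log2 change was 0.075 over 15 core genes, 0.035 over 20 PSMC and PSMD genes (0.038 without the 3 chaperones) and 0.10 over 4 activators. In the trend-corrected fit these medians were 0.098 for the core, 0.050 for the 19S group and 0.103 for the activators. With medians set back they were 0.075, 0.028 and 0.081. The alpha genes alone passed the activators in both fits, with medians of 0.14 and 0.12. The summed value of the core genes was 2765, 2944 and 2803 in MAT1A libraries and 2671, 2749 and 2723 in control libraries. For the 17 PSMC and PSMD genes without the 3 chaperones, the sum was 4176, 4271 and 4181 in MAT1A libraries. In control libraries it was 4119.9, 4228 and 4157. The 19S subunit genes ADRM1 and SEM1, which bear no PSM name, were not in this sum. Core sums thus stood 4.52% higher in MAT1A libraries with no overlap, and 19S sums 0.984% higher with overlap. The ratio of the core sum to the 19S sum was 0.662, 0.689 and 0.670 in MAT1A libraries, against 0.648, 0.650 and 0.655 in control libraries. These do not overlap, but without PSMD2, the 19S gene with the most reads, the ratios were 0.890, 0.920 and 0.903 in MAT1A libraries and 0.892, 0.885 and 0.894 in control libraries, which do. No p is given for these summaries, since members of 1 complex are not replicates.

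**Figure D3:**
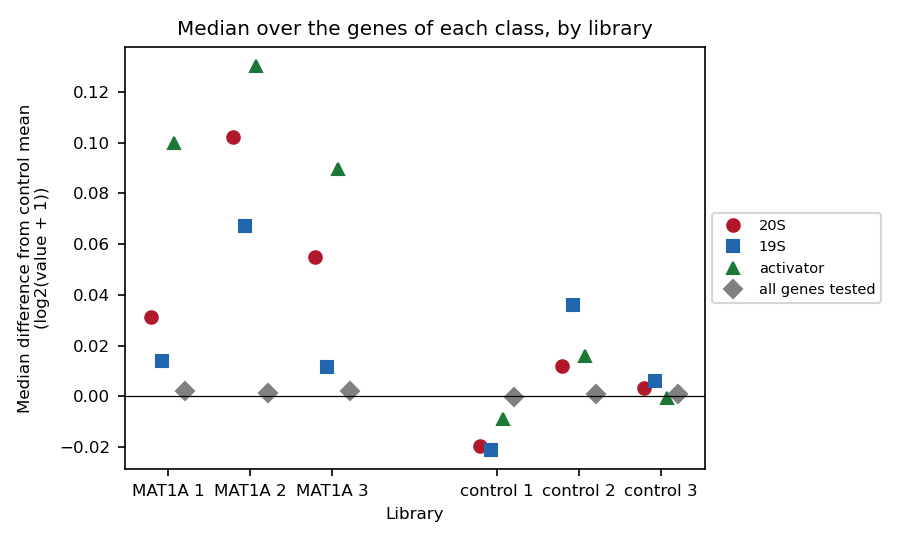
Median difference of each library from the control mean (y axis, log2(value + 1)) over the genes of the 20S core, the 19S group, the activators and all genes tested, with 1 point per class and library, MAT1A libraries left. The activators lie at 0.090 to 0.13 in MAT1A libraries, the core at 0.031 to 0.10, and MAT1A 2 is highest for all 3 classes while all genes stay near 0.

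MAT1A 2 had the highest value for 28 of the 44 genes (63.6%, against 24.5% of all genes tested), and control 1 had the lowest for 22 (50.0%, against 17.6%). Over the core genes the median difference from the control mean was 0.031, 0.10 and 0.055 in MAT1A 1, 2 and 3, and -0.020, 0.012 and 0.0032 in control 1, 2 and 3. Over the 19S group it was 0.014, 0.067 and 0.012 in MAT1A libraries and -0.021, 0.036 and 0.0062 in control libraries, so that control 2 lay above MAT1A 1 and MAT1A 3. The 19S median change was 0.015 without control 1, 0.018 without MAT1A 2 and 0.056 without control 2. MAT1A 2 was also highest in the summed epithelial markers. Their sum stood at 12680, 13419 and 12206 in MAT1A libraries and at 11724, 11710 and 11435 in control libraries. Of the 12 markers tested, 6 were called higher and 1 lower (limma, against 4.01% and 7.4% of all genes). GATA3 ran lower, at 37.6, 37.8 and 39.8 in MAT1A libraries against 47.0, 46.0 and 46.9 in control libraries. Whether these markers bear on the proteasome values was not tested. MAT1A 2 and control 1 were then both left out, an alternative added after the values were seen. They were picked as the libraries most often highest and lowest. Lower medians were thus favoured in advance, and the fit is no test of the change. The medians in this fit were 0.043 for the core, 0.00069 for the 19S group and 0.076 for the activators. The change of PSME3 was 0.094, against 0.088 in the main fit. With both left out, 1 member was called higher, PSME1 (limma adjusted p = 0.0237). The share of all genes called in this fit is not given here.

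Levels differed far more between subunit genes than between groups, although the finished particle holds its core subunits in equal numbers. Per kb of principal transcript, control means of core genes ran from 4.53 for PSMA2 and 5.58 for the inducible PSMB10 to 521 for PSMA7. PSMA1 (18.4 per kb), PSMA6 (25.5) and, in the 19S particle, PSMC1 (9.72) were also low. These genes share sequence with other annotated genes: of the 36-base windows of the principal transcript, 49.9% of those of PSMA1, 51.7% of PSMA2, 85.8% of PSMA6 and 97.7% of PSMC1 also occur in transcripts of other GENCODE 29 genes. The sources were mainly overlapping gene models for PSMA1 and PSMA2, and an overlapping model and pseudogenes for PSMA6. For PSMC1 they were pseudogenes and NRDE2, a gene on the other strand that overlaps 4671 of its 6161 exon bases. Their levels, and the differences named for them, are therefore uncertain, as are those of PSMB10 (40.8%), PSMD7 (49.7%) and PSMD9 (38.8%). Shared windows and a low level did not always go together. PSMD4 (35.3% shared) stood at 139 per kb and PSMC5 (23.6%) at 160, while PSMG4, with 0% shared, stood at 8.72. In the 24 genes with under 5% of shared windows, all estimates were above 0 (51.5% of all genes), with a median log2 change of 0.069. Of the 24, 3 were called higher (12.5%, against 4.01% of all genes). In the other 20, 14 were above 0 (70%), with a median of 0.032 and none called. Whether shared sequence bears on these counts was not tested.

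**Figure D4:**
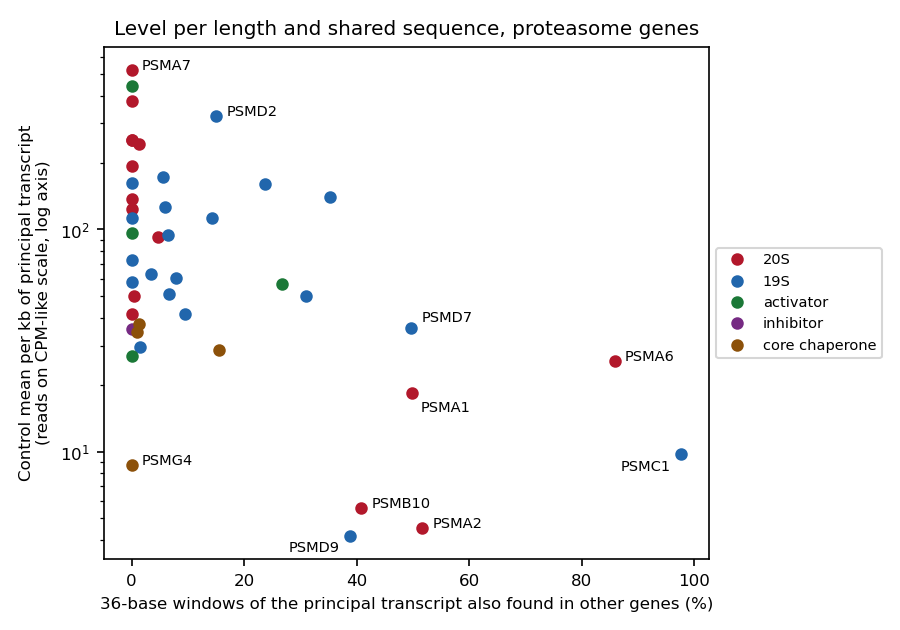
Control mean per kb of principal transcript (y axis, reads on the CPM-like scale, log axis) against the percent of 36-base windows of that transcript found in other genes (x axis), 1 point per proteasome gene, coloured by class. PSMA1, PSMA2, PSMA6 and PSMC1, with 49.9% to 97.7% of windows shared, lie at 4.53 to 25.5 per kb, while genes with none range from 8.72 (PSMG4) and 27.0 (PSME4) to 521 (PSMA7), and PSMD2, with 15% shared, lies at 324.

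Genes that serve the proteasome without bearing a PSM name were read from a list of 39 symbols, of which 36 were tested. Of these, 2 rose (5.56%, against 4.01% of all genes), 1 fell (against 7.4%) and 33 were not called, with a median log2 change of 0.037. With the replicate block 4 rose (7.57% of all genes) and 1 fell, and in the trend-corrected fit 7 rose (9.99%) and 1 fell. With medians set back 6 rose (5.79%) and 1 fell. Without control 1 or control 3 none was called, and the share over all genes in those fits is not given here. ECPAS, which encodes a proteasome adaptor, had 216, 210.3 and 223 in MAT1A libraries, against 199, 204 and 202 in control libraries, and rose by 0.10 (adjusted p = 0.0484; 0.0911 to 0.175 without any library but MAT1A 2). SQSTM1, the gene of the autophagy receptor p62, had 177, 183 and 178 in MAT1A libraries, against 191, 195 and 194 in control libraries, and its log2 change was -0.11, a called fall (adjusted p = 0.0279). That call was lost without MAT1A 1 (0.109) or control 1, 2 or 3 (0.0730, 0.0924 and 0.116).

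The regulators and accessory subunits on the list were not called. NFE2L1, the gene of NRF1, had 359, 369.6 and 349 in MAT1A libraries, against 352, 358 and 339 in control libraries, and overlapped (log2 change 0.039, adjusted p = 0.471). NFE2L2, the gene of NRF2, had 129.8, 129 and 130.4 in MAT1A libraries, against 128, 136 and 139.5 in control libraries (-0.050, adjusted p = 0.416). POMP, the maturation factor of the core, had 199, 207 and 195 in MAT1A libraries, against 186, 194 and 193 in control libraries, with no overlap and a change of 0.072 (adjusted p = 0.180); in the trend-corrected fit it was called, with a change of 0.17 (adjusted p = 0.000823), as it was with medians set back (0.14, adjusted p = 0.00227). ADRM1, a ubiquitin receptor of the 19S particle, stood at 202, 206 and 184 in MAT1A libraries and at 192, 204 and 195 in control libraries, and SEM1, the smallest 19S subunit, at 169, 182 and 168 in MAT1A libraries and 168, 172 and 167 in control libraries; both overlapped. SEM1 was called in the trend-corrected fit (0.15, adjusted p = 0.0356) and not with medians set back (adjusted p = 0.0720).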

How the data were processed

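The authors deposited a signal table: reads per gene of 6 libraries in units close to CPM, divided by adjusted library totals. Per the submitters' processing notes STAR 2.6.0c, featureCounts and edgeR were used with hg38; the sources used here give neither annotation nor settings. Per the labels' protocols the kit was TruSeq RNA, which does not mark strand, read over 36 cycles. All values were whole multiples of 1 step per column (100% within 0.001), taken as 1 read; a floor of 3 reads lay at 0.140 to 0.172.

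The main test was limma 3.58.1 (R 4.3.3) with an intensity trend on log2(value + 1), for the 12866 genes that reached a value of 1 in 3 or more libraries. The test was checked on simulated data. Alternatives were edgeR 4.0.16, DESeq2 1.42.0 and limma-voom on recovered reads, other scalings, filters and pseudocounts, removal of length and GC trends, the replicate block, and leaving out libraries. Same-numbered libraries deviated together (correlations 0.246, 0.178 and 0.191), so the replicate block took the numbers as pairs, which no label states. The main test, with its intervals and calls, treated the libraries as unpaired. No pair of libraries was a duplicate: within groups chi-square per degree of freedom was 1.86 to 4.39.

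Positions, lengths and windows came from GENCODE 29 (GRCh38; 13192 of 13271 symbols matched once) and promoters from RefSeq. Members and lists were chosen with earlier results of these data known. Values were printed for called members, fixed catalytic, activator and inhibitor genes and the largest changes; other members named were chosen after their values were seen. Intervals from limma cover the spread between libraries. One called gene of the list of genes that serve the proteasome is not reported here.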

Additional observations from a re-analysis of the deposited data

How the results depend on the processing

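Against 3 members higher (4.01% of all genes) and 0 lower (7.4%), the count higher was 1 with edgeR (3.75%) and with DESeq2 (2.48%). It was also 1 when library sizes left out MAT1A, at an adjusted p under 0.01 and without both MAT1A 2 and control 1. No share over all genes is given here for those settings. The library sizes that left out MAT1A were plain read totals. That setting thus also dropped the adjustment in the deposited totals, and the part of each step was not tested. With the replicate block (the pairing by number) the count was 9, where 7.57% of all genes were called higher. It was 19 in the trend-corrected fit (9.99%). It was 20 with that and the block, where no share over all genes is given here, and 7 with medians set back (5.79%). These last 2 fits also gave 1 lower. Leaving out 1 library gave 1 to 5 higher, with no share over all genes given here. Median log2 changes were then 0.015 to 0.056 for the 19S genes, 0.062 to 0.099 for the core and 0.089 to 0.12 for the activators. Without both MAT1A 2 and control 1 the 19S median was 0.00069 and that of the activators 0.076; with medians set back the activators had 0.081. Of the 49 members, 19 turned sign under at least 1 alternative: 4 of the 34 members run as named genes, and all 15 of the others, whose changes lay within 0.046 of 0. The 4 were PSME4 (-0.00092 when library sizes left out MAT1A; -0.025 to 0.040 without 1 library), PSMA7 (-0.0030 with medians set back, -0.014 without both libraries; -0.014 to 0.049 without 1 library), and, without both libraries, PSMD14 (-0.0057; 0.014 to 0.068 without 1 library) and PSMC6 (-0.0039; 0.018 to 0.095 without 1 library). The causes were not tested. Of 679 values of the 34 under the alternatives, which leave out those 15, 602 kept direction and call, 50 gained a call, 20 lost one (11 for PSME3 and 9 for PSMA4) and 7 turned sign. All these counts include the fit without both libraries, which was picked after the values were seen. PSMC6, PSMD14 and, among the 15, PSMD11 turned sign in that fit only. PSMC1P1 had no value under the stricter filter. PSME1 was called under every alternative run at an adjusted p under 0.05. Genes with few reads, such as PSMA2 and PSMB10, had 95% intervals wide enough to hold a change of the size seen in PSME1.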

Other observations

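The chaperonin TRiC, the ring complex that folds actin and tubulin, is another large complex of known make-up. Of its 8 genes, 5 rose (TCP1, CCT5, CCT6A, CCT7 and CCT8) and 0 fell in MAT1A libraries (limma adjusted p under 0.05), and all 8 showed no overlap between groups, beside 4.01% called higher and 14.7% without overlap among all genes. The median log2 change was 0.094. CCT7 averaged 602 ± 16.7 in MAT1A libraries and 553 ± 5.53 in control libraries (SD, n = 3 each; log2 change 0.12, limma adjusted p = 0.0136), and TCP1 averaged 627 ± 15.5 in MAT1A libraries and 578 ± 14.0 in control libraries (0.12, adjusted p = 0.0199). With the replicate block 7 rose. Without MAT1A 3 or control 2 the count was 3, and no chaperonin gene was called without control 1 or without control 3. The shares over all genes in these fits are not given here. The COP9 signalosome, whose subunits are related to those of the proteasome lid, had 0 of 10 genes called (limma; 1 at an unadjusted p under 0.05, COPS9; 0 by edgeR and by DESeq2; 1 with the replicate block) and a median of 0.016.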
